A study of Mus musculus with 6 samples.

Results

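Rab proteins are the largest branch of the Ras-like small GTPases and direct the traffic of membrane vesicles. A Rab is switched on by a guanine nucleotide exchange factor (GEF), which loads it with GTP, and switched off by a GTPase-activating protein (GAP), and in its GTP-bound form it recruits effectors that move, tether and fuse vesicles at one particular compartment. In endothelial cells, Rabs are known for steering the recycling of receptors and adhesion molecules and for the release of stored proteins such as von Willebrand factor. Members were taken by gene symbol: every non-control spot of the array whose annotated symbol is Rab followed by a number and at most 1 letter. This gave 88 of 59305 spots, carrying 79 of 55681 probes for 57 genes. RefSeq listed all 57 genes, 55 through the transcript on which the probe was designed and 2 through the symbol.

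The arrays compared 2 lines of 1G11 cells, a mouse microvascular endothelial line of strain C57BL/6NCrLBR. 1G11-mock cells are the control and 1G11-SOD3 cells overexpress superoxide dismutase 3, an enzyme secreted to the extracellular space, and before RNA isolation both spent 6 h in conditioned medium from N202.1A, a mouse line of mammary cancer. The design gives 3 biological replicates per line, hybridized one by one to single-color Agilent arrays, which asks how SOD3 changes gene expression in endothelial cells exposed to tumor cell products. Each line is 1 modified population, and whether either is a single clone is not given in the sources used here. The Sod3 probe read 13.61, 12.66 and 9.86 on the 1G11-mock arrays and 16.37, 16.30 and 16.26 on the 1G11-SOD3 arrays (log2 intensity), above the control on every array. The probe lies in the part of the array that read dim on the 1G11-mock arrays, described next, and its difference was 4.27 on the log2 scale, or 2.73 when adjusted for place on the array.

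Between 34.2% and 43.8% of the spots were well above background on an array, and no spot was saturated. Of 14 endothelial markers, 5 genes (Eng, Esam, Kdr, Mcam and Vwf) were well above background on all 6 arrays, and 6 were so on none, among them Cdh5, Tek, Tie1 and Erg. Each gene was counted by its best detected probe, and another probe of Kdr and another of Mcam were well above background on no array. Of 6 epithelial markers none was well above background on all arrays, whereas 4 of 6 mesenchymal markers were (Acta2, Col1a1, Dcn and Pdgfra), and 1 of the 5 leukocyte markers measured was (Cd3e). No epithelial or leukocyte marker was called. Of the 6 mesenchymal markers 4 were called higher in 1G11-SOD3 cells and none lower. These were Col1a1, Acta2 (2.62 elsewhere), Pdgfrb (2.39) and, in the middle of the array alone, Pdgfra (1.49). The summed intensity of the 8 mesenchymal measurements ran from 22671 to 37494 on the 1G11-mock and from 52447 to 181245 on the 1G11-SOD3 arrays. Acta2 and Pdgfra enter this sum from both places. The highest sum was that of 1G11-SOD3 replicate 3, where Dcn read 17.05, against 13.51 and 13.59 on the other 1G11-SOD3 arrays. Dcn was not called (0.29 ± 0.74, adjusted p = 0.905, limma). Of the endothelial markers Egfl7 was called higher (1.82) and Vwf lower (-1.65). Egfl7 was well above background on 2 of the 3 1G11-mock arrays. Adjusted for place, Egfl7 was no longer called (0.97, adjusted p = 0.0797, limma) and Vwf stayed called (-1.36, adjusted p = 0.0347, limma). The summed intensity of the 17 endothelial measurements ran from 30713 to 42445 on the 1G11-mock and from 24452 to 28656 on the 1G11-SOD3 arrays. The part of these shifts in the Rab results was not tested. The spots in rows 129 to 256 and columns 55 to 109, called here the middle of the array, read dim on the 1G11-mock arrays and are reported apart from those elsewhere. All arrays of a line shared a slide row, row 2 for 1G11-mock and row 1 for 1G11-SOD3, so the effect of cell line and that of slide row cannot be told apart. In an RNA pool, a smaller share of cells that express a gene and less RNA per cell cannot be told apart either.

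Values are log2 intensities after background correction and quantile normalization, and a difference is the 1G11-SOD3 mean minus the 1G11-mock mean (log2 fold change ± SE, n = 3 arrays per line). A probe was called when the lines differed by over 2-fold and the adjusted p was below 0.05 (limma, Benjamini-Hochberg over all probes of the array). Intensities of different probes are not set against each other. Elsewhere on the array lay 66 Rab measurements for 48 genes and in the middle 14 for 14 genes, 80 in all because copies of 1 Rab5a probe lay in both places.

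Elsewhere on the array, 5 Rab probes were lower in 1G11-SOD3 cells and 1 was higher. Both probes of Rab17 fell, as did the Rab27a probe, 1 of the 2 Rab27b probes and 1 Rab8a probe, and Rab40b rose. Over all probes elsewhere, 1.2% were called lower and 0.66% higher. The median of the 66 Rab differences was -0.23, against -0.06 over all 49526 probes elsewhere, and 45 of the 66 lay below 0. With probes dim in both lines left out, these medians were -0.27 and -0.13. This order depended on the scaling, for with each array scaled to its 75th percentile the Rab median was -0.26 and that of all probes -0.35. The lines did not overlap for 20 of the 66 Rab measurements (30.3%), 15 of them lower and 5 higher in 1G11-SOD3 cells, against 19.7% of all probes elsewhere. With dim probes left out, 51 of the 66 Rab measurements remained, against 17659 of the 49526 probes elsewhere. The shares over all probes thus come from a dimmer set, and they were not computed with dim probes left out.

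**Figure D1:**
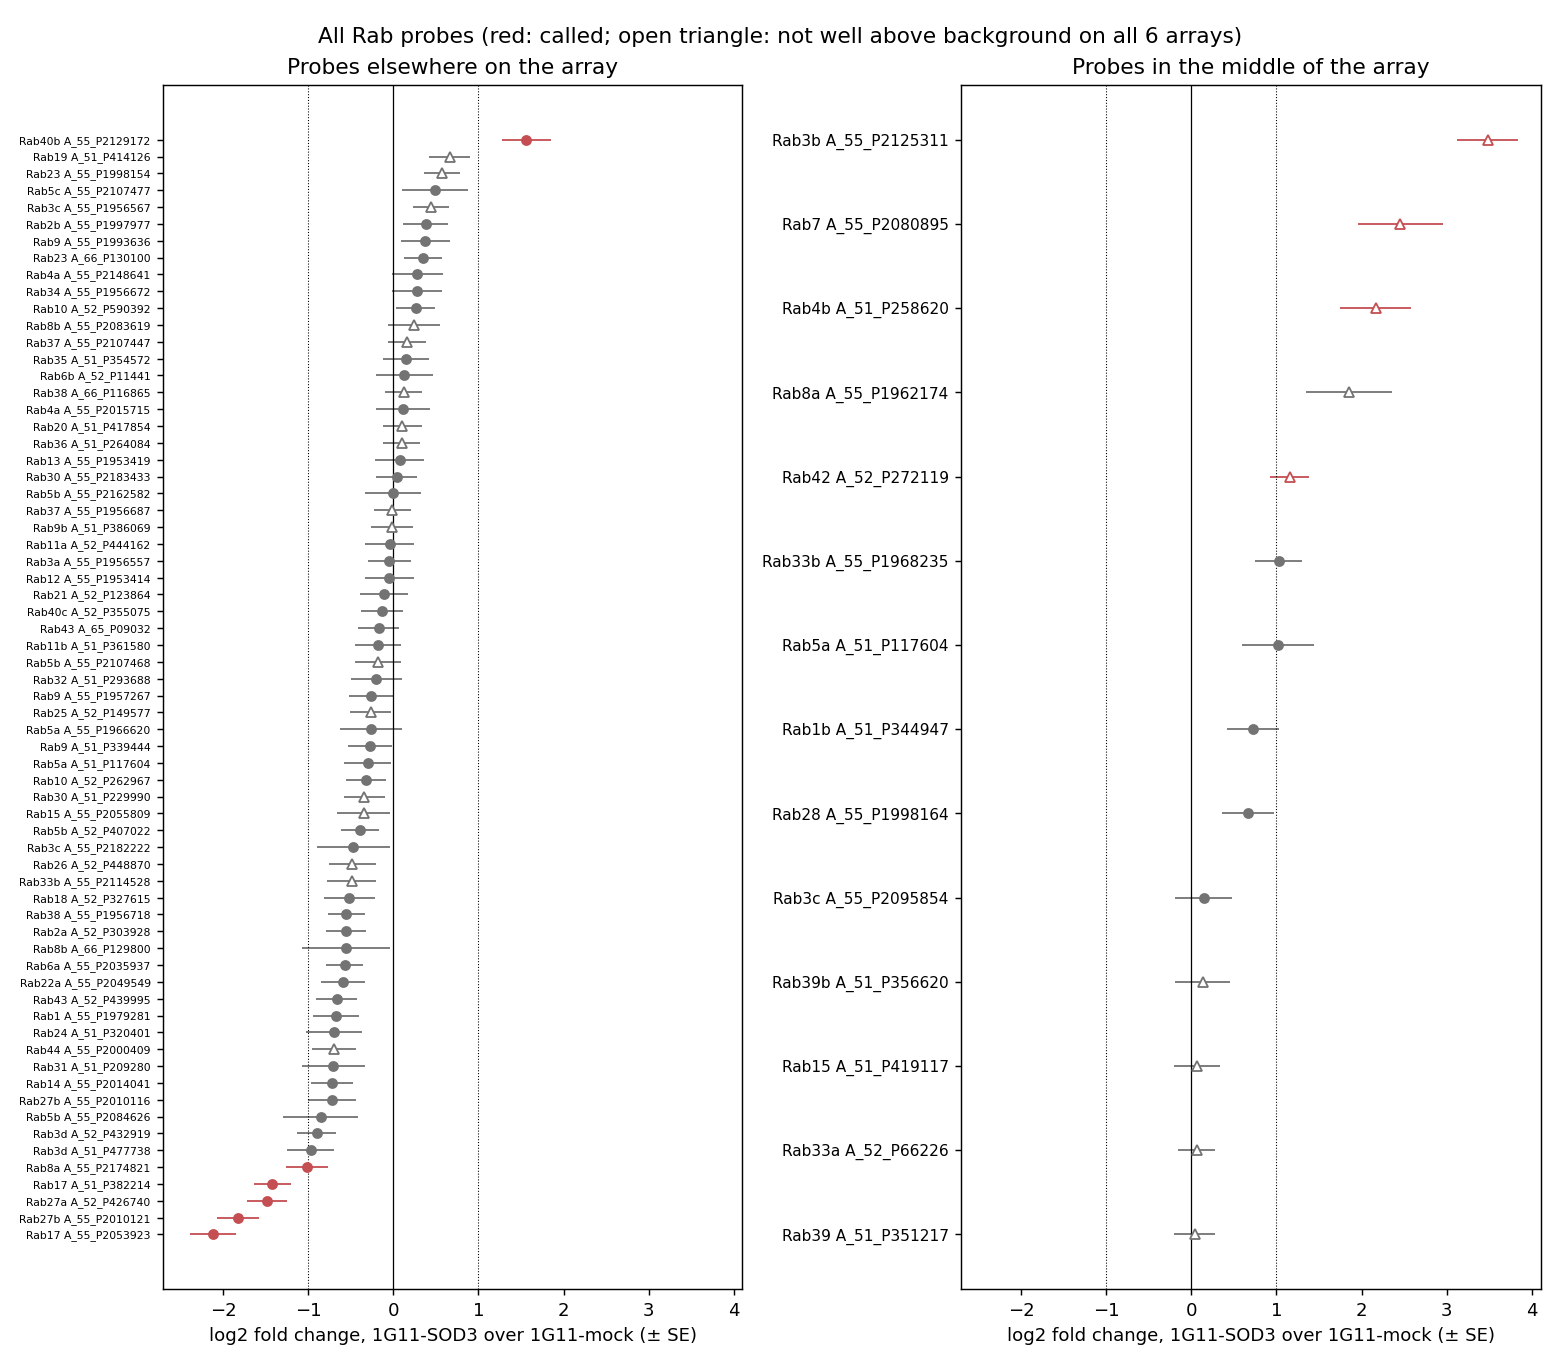
Log2 fold change of 1G11-SOD3 over 1G11-mock for each of the 80 Rab measurements, with its standard error, elsewhere (left) and in the middle of the array (right). Red marks called probes, open triangles mark probes dim on at least 1 of the 6 arrays (not well above background), and dotted lines mark a 2-fold change. Elsewhere the differences run from -2.11 to 1.56, whereas all 14 in the middle lie above 0.

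For 5 of the 6 probes called elsewhere the sequence is given as the array files list it, 5′ to 3′, so that each result can be tied to its target, and the Rab27b probe is named only. The Rab17 probe starting at base 666 of its transcript and the Rab8a probe starting at base 578 are shown whole. Each has a reading frame without a stop codon that holds a short motif from a list of Rab motifs. Of the others the first 30 of 60 bases are shown, and whether they lie in coding sequence was not established.
Rab17 A_51_P382214: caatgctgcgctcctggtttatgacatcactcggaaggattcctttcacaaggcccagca
Rab17 A_55_P2053923: aatgcaaggaaaaatgcagagatgagccca
Rab27a A_52_P426740: agggactctttgaaacaccaaactcatcat
Rab8a A_55_P2174821: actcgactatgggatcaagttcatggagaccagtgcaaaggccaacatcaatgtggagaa
Rab40b A_55_P2129172: cagcattgtttcaacagattagcaaggaga

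Rab17 is known from polarized epithelial cells, where it acts in apical recycling and transcytosis (GRCm38.p6, chr1:90958133-90969673). Probe A_55_P2053923, which starts at base 1540, read 11.21, 11.61 and 11.31 on the 1G11-mock arrays and 8.83, 9.74 and 9.22 on the 1G11-SOD3 arrays. The lowest control array was brighter than the brightest 1G11-SOD3 array, and the fall was 4.33-fold (-2.11 ± 0.27, adjusted p = 0.00194, limma). Probe A_51_P382214 read 9.32, 9.53 and 9.72 against 8.07, 8.15 and 8.10, again with no overlap (-1.42 ± 0.22, adjusted p = 0.00535, limma). The 2 probes target separate stretches of the transcript and moved the same way, and both stayed called when any array was left out. Of the 6 epithelial markers, Cldn4, Epcam and Krt18 were well above background on no array, Krt8 and Krt5 on 1 1G11-SOD3 array each, and Cdh1 on all 3 1G11-SOD3 arrays and no 1G11-mock array (0.30 and 0.32, not called). Their summed intensity ran from 1527 to 1738 on the 1G11-mock and from 1594 to 1770 on the 1G11-SOD3 arrays, and their part in the Rab17 result was not tested. Rab25, an epithelial Rab of the recycling endosome, was well above background on no array.

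Rab27a and Rab27b dock secretory granules at the plasma membrane, and in endothelial cells Rab27a is known on Weibel-Palade bodies, the stores of von Willebrand factor. The Rab27a probe (chr9:73044810-73097623, GRCm38.p6) read 10.77, 11.20 and 10.77 in 1G11-mock and 9.29, 9.32 and 9.69 in 1G11-SOD3 cells. The lines did not overlap, and the fall was 2.79-fold (-1.48 ± 0.24, adjusted p = 0.00648, limma). After an adjustment for place on the array, described further on, the Rab27a difference was -0.83 ± 0.22 and no longer called (adjusted p = 0.0698, limma).

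For Rab27b, probe A_55_P2010121 read 11.73, 11.40 and 11.78 in 1G11-mock and 9.85, 9.49 and 10.09 in 1G11-SOD3 cells, a 3.54-fold fall with no overlap (-1.82 ± 0.24, adjusted p = 0.00249, limma). The other Rab27b probe, A_55_P2010116, read 12.34, 11.99 and 11.95 against 11.19, 10.96 and 11.96 and was not called (-0.72 ± 0.28, adjusted p = 0.261, limma). 1G11-SOD3 replicate 3 alone reached the range of the control there. Both Rab27b probes were called after the adjustment for place, at -1.55 ± 0.22 and -1.18 ± 0.24. Vwf, the gene of von Willebrand factor, differed by -1.65 between the lines (adjusted p = 0.00326, limma).

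Elsewhere on the array, none of the other Rabs of regulated secretion was called. Rab3d, known on secretory granules of exocrine and endothelial cells, had 2 probes that were lower in 1G11-SOD3 cells with no overlap and did not pass the test. They read 14.53, 14.94 and 15.11 against 14.04, 13.97 and 13.87 for probe A_52_P432919 and 11.06, 10.92 and 10.23 against 10.05, 9.77 and 9.48 for probe A_51_P477738. The differences were -0.90 ± 0.23 (adjusted p = 0.0655, limma) and -0.97 ± 0.28 (adjusted p = 0.0982, limma). The first was called without 1G11-mock replicate 1 (-1.06, adjusted p = 0.0414, limma) and the second without 1G11-mock replicate 3 (-1.22, adjusted p = 0.0391, limma). Adjusted for place, both were smaller, at -0.67 ± 0.21 (adjusted p = 0.106, limma) and -0.54 ± 0.27 (adjusted p = 0.293, limma). For the second probe the lines then overlapped. Rab3a, a Rab of synaptic vesicles, differed by -0.05 ± 0.25, and both Rab37 probes, for a Rab of mast cell granules, lay within 0.17 of 0 and near background. Over the 12 measurements of this group elsewhere, covering 8 genes, the median difference was -0.59, with 2 called lower, none called higher and 10 below 0. Adjusted for place, that median was -0.44.

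Rab8a, which acts in transport to the basolateral membrane and to the cilium, gave values that differed by place (chr8:72161200-72181366, GRCm38.p6). Its probe elsewhere read 12.40, 12.14 and 11.77 in 1G11-mock and 11.32, 10.93 and 11.03 in 1G11-SOD3 cells. The lines did not overlap, and the difference passed the threshold narrowly (-1.01 ± 0.24, adjusted p = 0.0495, limma). It was lost when any array other than 1G11-mock replicate 3 was left out (adjusted p from 0.0925 to 0.192, limma), it was kept in 5 of 15 other alternatives, and with the adjustment for place it was -0.39 ± 0.28 (adjusted p = 0.46, limma). The Rab8a probe in the middle of the array, A_55_P1962174, read 9.51, 10.51 and 7.86 against 11.25, 11.19 and 10.998 and so ran the opposite way (1.85 ± 0.51, adjusted p = 0.0829, limma). That probe was called higher without 1G11-mock replicate 2 (2.46, adjusted p = 0.0274, limma) and with the replicate number as a block (adjusted p = 0.0204, limma), a fit in which 16.3% of all probes in the middle were called higher. No direction is therefore given for Rab8a. Of its relatives in polarized transport, neither the 2 Rab8b probes (-0.56 and 0.25) nor Rab13, a Rab of tight junctions (0.07 ± 0.28), were called.

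Rab40b belongs to the Rabs with a SOCS box, by which they join ubiquitin ligase complexes, and is known from the sorting of matrix metalloproteinases (chr11:121356121-121388251, GRCm38.p6). It read 9.08, 8.80 and 9.00 in 1G11-mock and 10.03, 10.43 and 11.11 in 1G11-SOD3 cells. All 1G11-SOD3 arrays were higher, and the rise was 2.95-fold (1.56 ± 0.28, adjusted p = 0.0129, limma). Adjusted for place, it was 1.72 ± 0.32 (adjusted p = 0.0173, limma). The call was lost without 1G11-mock replicate 2 (adjusted p = 0.0673, limma) and without 1G11-SOD3 replicate 3 (adjusted p = 0.05, limma), at differences of 1.48 and 1.27. Rab40c, its close relative, differed by -0.13 ± 0.24.

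**Figure D2:**
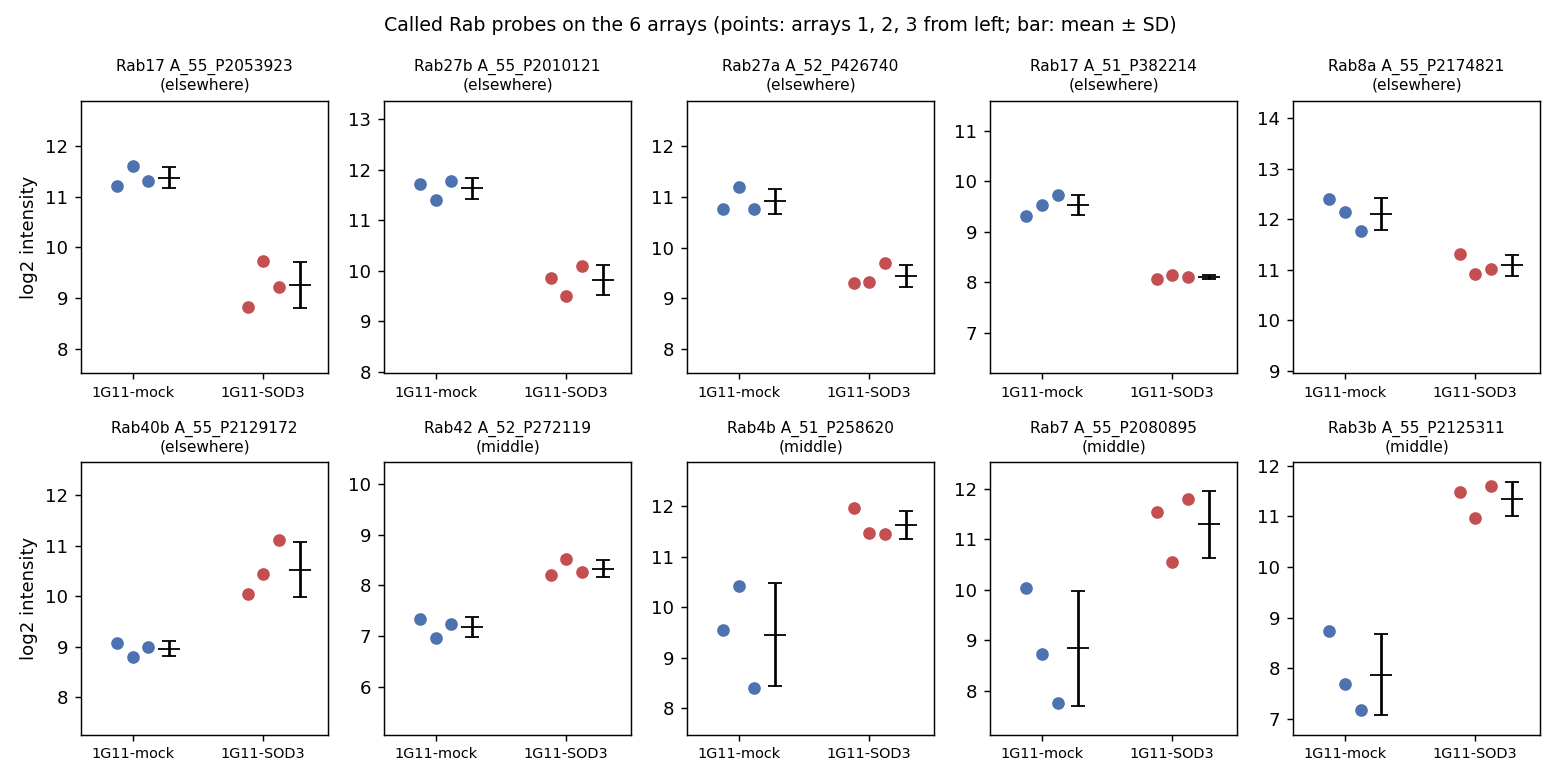
Log2 intensity on each of the 6 arrays for the 10 called Rab probes, 6 elsewhere and 4 in the middle of the array, with the mean and SD of each line beside its 3 arrays. Each panel spans the same range of log2 units. The lines do not overlap in any panel, and the 1G11-mock arrays of Rab7, Rab4b and Rab3b are spread more widely than those of the probes elsewhere.

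Elsewhere on the array, no Rab of the Golgi or of late endosomes was called, and of those of early and recycling endosomes Rab17 alone was. In the group of early and recycling endosomes, 19 of 21 measurements elsewhere did not pass the test, the exceptions being the 2 Rab17 probes, and the 19 ran from -0.85 to 0.49. Rab5a, Rab5b and Rab5c, which govern fusion of early endosomes, had 7 probes elsewhere between -0.85 and 0.49. Rab4a and Rab35, of rapid recycling, lay between 0.12 and 0.28, and Rab11a and Rab11b, of slow recycling, at -0.04 ± 0.29 and -0.18 ± 0.27.

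Of the Rabs of the endoplasmic reticulum and Golgi, 0 of 14 measurements elsewhere were called, with 8 below 0 and 6 above, and their median was -0.25, or 0.08 adjusted for place. Rab1, Rab2a and Rab6a, which act from the endoplasmic reticulum through the Golgi, read lower in 1G11-SOD3 cells with no overlap, at -0.67 ± 0.27, -0.56 ± 0.23 and -0.57 ± 0.22, and none passed the test (lowest adjusted p of the 3 = 0.235, limma). Rab19 was higher with no overlap and did not pass it either (0.66 ± 0.24, adjusted p = 0.209, limma), and was well above background on the 1G11-SOD3 arrays and no 1G11-mock array. A bound of the kind given below for Rab42 showed no rise for Rab19. Of the 5 measurements of late endosome Rabs elsewhere none was called, and the 3 Rab9 probes, for a Rab of traffic from late endosomes to the Golgi, ran from -0.28 to 0.38. The 3 of Rab32 and Rab38, of lysosome-related organelles such as melanosomes, ran from -0.55 to 0.12.

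Probes of 1 gene give a view of the error between probes. Of 15 genes with several measurements elsewhere, 7 had differences within 0.5 of each other, and the median range was 0.58. Some of these ranges include probes well above background on no 1G11-mock array, such as those of Rab37. The ranges were not computed with dim probes left out. Rab3d was tightest among the Rabs named above after Rab5a, with 2 probes 0.07 apart, and the 2 Rab27b probes were 1.10 apart.

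In the middle of the array, all 14 Rab measurements had a difference above 0, and 4 were called higher: Rab3b, Rab7, Rab4b and Rab42. None was called lower. Over all probes there, 11.9% were called higher and 0.0622% lower. The Rab median was 0.87, against 0.18 over all 6445 probes in the middle, or 1.09 against 1.13 with dim probes left out. The lines did not overlap for 7 of the 14 (50%), against 28.9% of all probes in the middle. With dim probes left out, 10 of the 14 remained, against 2287 of the 6445 probes there, and the shares were not computed on these. Values that bear on the place come from copies of a Rab5a probe, from genes measured in both places and from an adjustment for place.

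The Rab5a probe A_51_P117604 is printed 10 times, 8 times elsewhere and 2 times in the middle, so that 1 sequence reports on the same RNA at 10 spots. Its first 30 bases, from base 2022 of the transcript, are shown.
Rab5a A_51_P117604: tcccctatgaaaggaaggggctttgctgtt
The 8 copies elsewhere averaged 12.54, 12.57 and 12.51 on the 1G11-mock arrays and from 11.90 to 12.83 on the 1G11-SOD3 arrays (SD between copies 0.34 to 0.73). The 2 copies in the middle averaged 11.94, 11.32 and 9.97 on the 1G11-mock arrays and 12.08, 11.70 and 12.50 on the 1G11-SOD3 arrays. On each 1G11-mock array both middle copies were dimmer than all 8 elsewhere, and on the 1G11-SOD3 arrays they lay within the range of the copies elsewhere. The difference between the lines was thus -0.30 ± 0.27 from copies elsewhere (adjusted p = 0.68, limma) and 1.02 ± 0.43 from those in the middle (adjusted p = 0.297, limma). Among the copies elsewhere it ran from -0.61 to 0.27. The copy at 0.27, in row 213 and column 52, was the nearest to the edge of the middle.

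**Figure D3:**
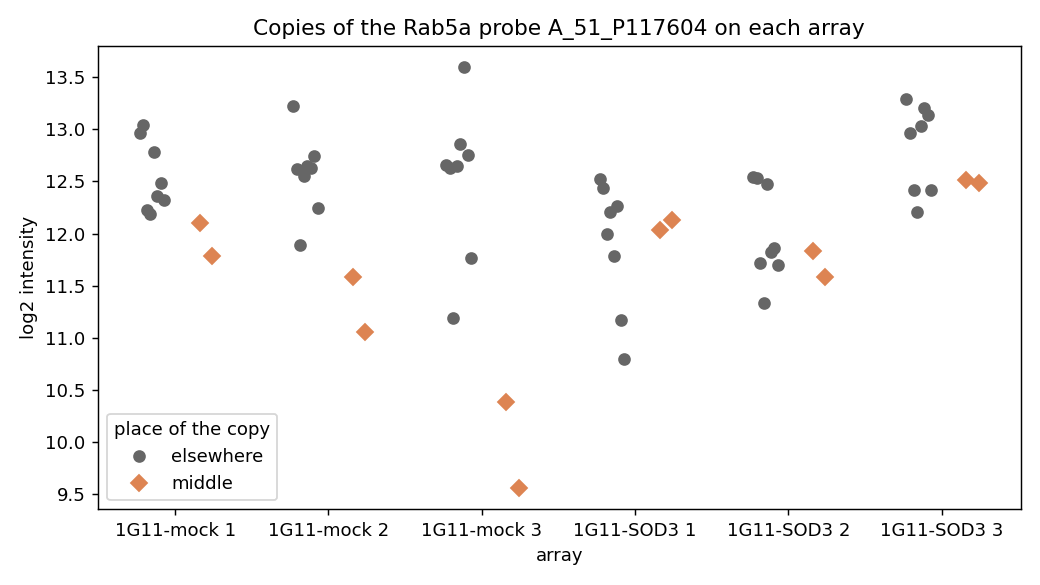
Log2 intensity of the 10 copies of 1 Rab5a probe on each array, 8 elsewhere (circles) and 2 in the middle (diamonds). On each 1G11-mock array both middle copies lie below all others, furthest on replicate 3, whereas on the 1G11-SOD3 arrays they lie among the copies elsewhere.

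The genes with probes in both places were Rab3c, Rab5a, Rab8a, Rab15 and Rab33b, and in each the difference in the middle was above the mean of the gene's measurements elsewhere, by 0.16 to 2.86. The Rab15 probes were well above background on no array in either place. Of the 3 Rab3c probes, 2 are a near repeat of 1 target, as they share 54 of 60 bases, and the other, A_55_P1956567, lay elsewhere, was well above background on no array and had a difference above that of the middle probe (0.44 ± 0.21, adjusted p = 0.378, limma). The first 30 bases of each are shown with the stretch common to both in capitals, for the middle probe is the other moved by 6 bases.
Rab3c A_55_P2182222, elsewhere: gctagaATGTTCTACAGAGTGAGTTCTAGG
Rab3c A_55_P2095854, middle: ATGTTCTACAGAGTGAGTTCTAGGatagca
The near repeat elsewhere read 10.64, 10.16 and 8.62 in 1G11-mock and 9.29, 9.62 and 9.09 in 1G11-SOD3 cells, and the one in the middle 10.47, 9.04 and 9.40 against 9.88, 9.95 and 9.52. Neither of these was called (-0.47 ± 0.43 and 0.14 ± 0.34), and the lines overlapped in both. Rab33b, a Golgi Rab that also acts in autophagy, read 11.12, 10.49 and 10.14 against 11.76, 11.51 and 11.56 in the middle (1.03 ± 0.27, adjusted p = 0.0737, limma), and its probe elsewhere was well above background on no array. The middle Rab33b probe was called with the replicate number as a block (adjusted p = 0.037, limma) and without 1G11-mock replicate 1 (1.29, adjusted p = 0.022, limma).

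The adjustment for place took from each array the local median deviation from the 6-array mean, in a window of 25 rows by 13 columns, before normalization. A spot dim on more than 3 of the 6 arrays did not enter this median but was adjusted by it. With the adjustment, 1 Rab probe in the middle was called higher and none lower. The Rab median there was 0.24, against -0.65 over all probes in the middle. These sets differ in brightness, for 10 of the 14 Rab measurements but 2287 of the 6445 probes remained with dim ones left out. Adjusted medians were not computed without dim probes, so whether Rabs stood above probes of like brightness was not tested. The adjustment itself was uneven in the middle, where 2.02% of all probes were then called higher and 17.1% lower, and the dim probes of Rab15, Rab39 and Rab39b went from near 0 to -1.59, -0.78 and -1.49. Elsewhere 1 Rab probe was called higher and 4 lower, namely Rab40b and both probes each of Rab17 and Rab27b, against 0.951% and 0.789% of all probes. The Rab median elsewhere was then -0.045, against 0.09 over all probes there, and this pair too was not computed without dim probes.

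**Figure D4:**
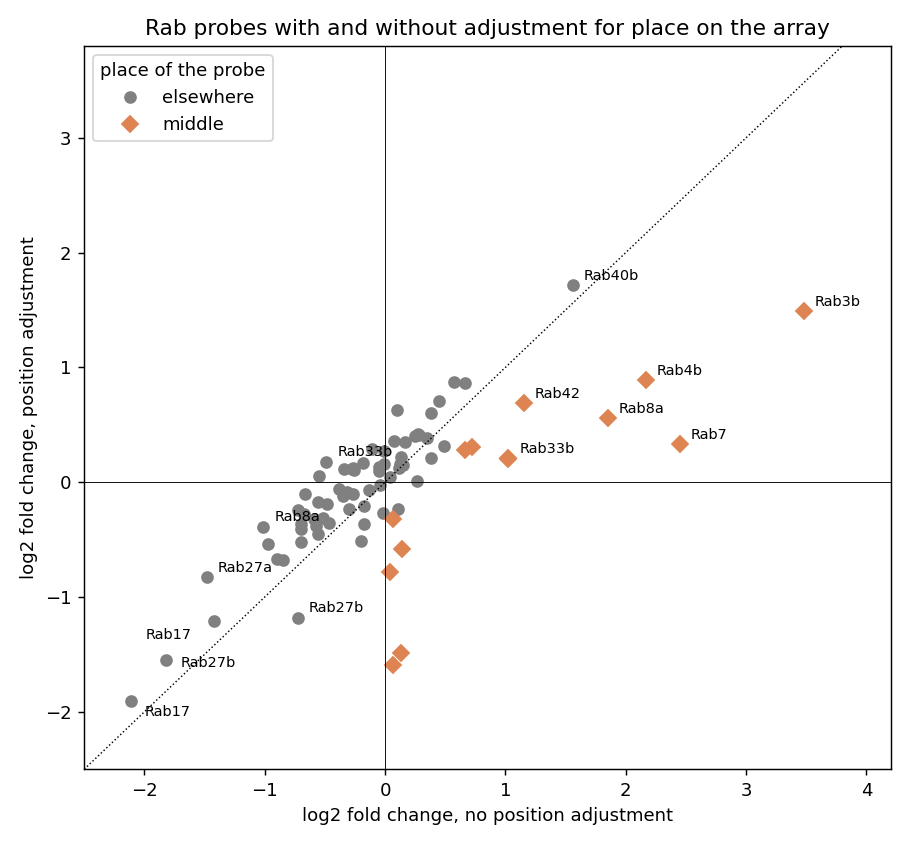
Log2 fold change of the 80 Rab measurements without (x axis) and with (y axis) the adjustment for place on the array, elsewhere (circles) and in the middle (diamonds), with the dotted line marking equal values. Most diamonds fall well below the line, Rab7 moving from 2.45 to 0.33, whereas the circle of Rab40b moves from 1.56 to 1.72 and that of the second Rab27b probe from -0.72 to -1.18.

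The 4 called probes in the middle are given 5′ to 3′. Those of Rab7 and Rab4b are whole, as each has a frame without a stop codon that holds a listed Rab motif. The others are given by their first 30 bases.
Rab3b A_55_P2125311: agtgtgtaaagtgaggcccacctgcacagc
Rab7 A_55_P2080895: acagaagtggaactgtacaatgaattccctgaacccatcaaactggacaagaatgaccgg
Rab4b A_51_P258620: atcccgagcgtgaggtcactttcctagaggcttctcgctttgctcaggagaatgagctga
Rab42 A_52_P272119: tactggttggccacaagtgtgacctgaaca

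Rab3b, a Rab of regulated exocytosis, had the largest difference of the 80 measurements before the adjustment for place (chr4:108879070-108943324, GRCm38.p6). It read 8.74, 7.68 and 7.18 in 1G11-mock and 11.47, 10.96 and 11.60 in 1G11-SOD3 cells. The lines lay more than 2 log2 units apart, and the spot was well above background in 1 of the 3 control samples and in all 3 with SOD3 (3.48 ± 0.36, adjusted p = 0.00056, limma). Adjusted for place, Rab3b read 8.95, 8.80 and 8.88 against 10.25, 10.53 and 10.32. The lines still did not overlap, and Rab3b alone of the middle Rabs stayed called, at 1.49 ± 0.20 (adjusted p = 0.00432, limma). The array holds no second Rab3b probe among the members, so no measurement elsewhere stands beside this one.

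Rab7, which directs late endosomes to fusion with lysosomes (chr6:87999106-88045270, GRCm38.p6), read 10.03, 8.74 and 7.76 in 1G11-mock and 11.54, 10.55 and 11.80 in 1G11-SOD3 cells (2.45 ± 0.50, adjusted p = 0.023, limma). It was well above background on 2 of the 3 1G11-mock arrays, and the call was lost when 4 of the 6 arrays were left out one at a time, namely either 1G11-mock replicate 2 or 3 or 1G11-SOD3 replicate 1 or 3 (adjusted p up to 0.119, limma). The difference adjusted for place was 0.33 ± 0.22 (adjusted p = 0.426, limma).

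Rab4b, a recycling endosome Rab (chr7:27168433-27178883, GRCm38.p6), read 9.56, 10.42 and 8.39 against 11.95, 11.47 and 11.44 (2.17 ± 0.42, adjusted p = 0.0177, limma), and was well above background on 2 of the 3 1G11-mock arrays. The call was lost without 1G11-SOD3 replicate 1 or 3 (adjusted p = 0.0722 and 0.072, limma). After the adjustment for place Rab4b differed by 0.89 ± 0.28 (adjusted p = 0.106, limma). Its close relative Rab4a, measured elsewhere by 2 probes, differed by 0.12 ± 0.32 and 0.28 ± 0.30.

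Rab42, a little studied Rab grouped here with the late endosome (chr4:132300438-132303382, GRCm38.p6), read 7.34, 6.97 and 7.23 against 8.20, 8.52 and 8.27. It was well above background on no 1G11-mock array and on all 1G11-SOD3 arrays, so the difference has only a bound, at least 1.31-fold higher (adjusted p = 0.0183, limma). The call was lost without 1G11-mock replicate 2 (adjusted p = 0.0804, limma), without any 1G11-SOD3 array (adjusted p from 0.0547 to 0.0855, limma) and with the adjustment for place (adjusted p = 0.166, limma). A bound of this kind takes, for each dim array, the lowest signal among its probes well above background.

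The genes that switch Rabs and those that Rabs recruit were counted from lists. Of the 33 GEF genes measured, 1 of 37 measurements elsewhere was called higher and 2 lower, and of the 33 GAP genes 3 of 41 were called lower and none higher. Of the 8 genes for prenylation and membrane cycling of Rabs, 0 of 11 measurements were called, and of the 44 effector genes 2 of 47 were called lower elsewhere and none higher, beside 0.66% higher and 1.2% lower over all probes elsewhere. In the middle, 3 of 9 GEF measurements, 0 of 2 GAP measurements and 1 of 7 effector measurements were called higher and none lower, beside 11.9% higher over all probes there. The list medians elsewhere were -0.22, -0.23, -0.38 and -0.24 for GEFs, GAPs, prenylation and effectors, against -0.06 over all probes. Adjusted for place they were 0.06, -0.07, -0.17 and 0.04, against 0.09 over all probes, so the sign for GEFs and effectors depended on the adjustment.

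Among effectors, Sytl2, which tethers Rab27-bearing granules to the plasma membrane, read 12.24, 12.42 and 13.04 in 1G11-mock and 7.99, 8.40 and 8.23 in 1G11-SOD3 cells. It fell 20.6-fold (-4.36 ± 0.26, adjusted p = 7.25e-05, limma), by more than any Rab. Of its family, Sytl4, also a Rab27 effector, read 11.33, 11.11 and 10.03 against 10.39, 10.55 and 9.86, with overlap (-0.56 ± 0.34, adjusted p = 0.505, limma). With the adjustment for place Sytl4 was called lower (-1.04 ± 0.25, adjusted p = 0.0469, limma). Sytl1 elsewhere was not called (-0.48 ± 0.22, adjusted p = 0.362, limma) and was -0.009 adjusted for place. Elsewhere, Sytl3 (-0.095 and -0.002) and Sytl5 (-0.087) were well above background on no array. In the middle, dim Sytl1 and Sytl3 probes differed by 0.24 and -0.22, or by -1.78 and -1.24 adjusted for place. Appl2, an adaptor bound by Rab5 on early endosomes, fell as well (-1.70 ± 0.23, adjusted p = 0.00273, limma). Sytl2 and Appl2 stayed called when adjusted for place, at -4.05 and -1.39.

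Among GAPs, Tbc1d2, which acts on Rab7, fell by both of its probes (-1.93 ± 0.31 and -1.69 ± 0.32, adjusted p = 0.00691 and 0.0172, limma). Evi5, a GAP linked to Rab11, fell narrowly (-1.39 ± 0.33, adjusted p = 0.0482, limma). The second Tbc1d2 probe lost its call without 1G11-mock replicate 1 or 2 or 1G11-SOD3 replicate 3 (adjusted p up to 0.086, limma), and Evi5 lost it without any array but 1G11-SOD3 replicate 3 (adjusted p up to 0.141, limma). Both genes were also called with the adjustment for place. Among GEFs, Dennd2d, which carries a DENN domain, read 10.26, 10.24 and 11.03 against 7.81, 8.81 and 8.81, with no overlap (-2.03 ± 0.33, adjusted p = 0.00666, limma). Dennd2a, of the same family, rose from 10.07, 10.33 and 10.29 to 12.31, 12.59 and 12.47 (2.23 ± 0.22, adjusted p = 0.000382, limma). Both were called with the adjustment for place too, at -1.84 and 2.22.

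The partner probes called in the middle were those of Mon1a, a subunit of the Rab7 GEF (2.63 ± 0.49), Ankrd27, a GEF of Rab21 (2.59 ± 0.47), Dennd4a (at least 2.25-fold) and Ankfy1, a Rab5 effector (at least 1.37-fold, well above background on 2 of the 3 1G11-SOD3 arrays and no 1G11-mock array). Without 1G11-SOD3 replicate 1 or 3 the calls of Mon1a, Ankrd27 and Ankfy1 were lost, and those of the last 2 also without 1G11-mock replicate 2 (adjusted p from 0.0541 to 0.0806, limma). None of these 4 was called after the adjustment for place, and Dennd4a and Ankfy1 turned to -0.55 and -0.77. A Dennd4a probe elsewhere, well above background on every array, differed by -0.17 ± 0.25 (adjusted p = 0.822, limma). An Ankfy1 probe elsewhere, well above background on no array, differed by 0.04 ± 0.28 (adjusted p = 0.969, limma). The second Ankrd27 probe, elsewhere, read 7.84, 7.84 and 7.77 against 8.31, 8.57 and 8.45 and was well above background on the 1G11-SOD3 arrays and no 1G11-mock array, at least 1.40-fold higher (adjusted p = 0.178, limma). With the adjustment for place, it was called (adjusted p = 0.0354, limma).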

How the data were processed

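Total RNA of 3 1G11-mock and 3 1G11-SOD3 samples was hybridized to single-color Agilent SurePrint arrays. The authors deposited, per array, scanner intensities that are not normalized, and a log2 table that was background corrected by normexp and quantile normalized with limma, per the labels and methods. Recomputed with median pixels and control spots kept, that table matched to within 0.005.

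Here mean spot intensities of the deposited scanner files were background corrected (normexp, offset of 50), log2 transformed and quantile normalized without control spots (limma 3.58.1, R 4.3.3). Outlier spots were left out and copies of a probe averaged within the middle and elsewhere apart, giving 55971 measurements. Lines were compared by limma with Benjamini-Hochberg adjustment, at more than 2-fold and adjusted p under 0.05. Exact permutation of 3 against 3 arrays could not go below 0.1, so none was used. On simulated data, 153 of 200 changed probes were found and 3 unchanged ones called. The changed probes were drawn from the brighter ones and moved by 2 or 3 log2 units, so detection of smaller changes was not simulated. The simulation drew each probe independently and held no dim middle, so these counts do not cover errors that come from place on the array. Tables and figures used Python 3.11.15.

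Replicate numbers, which are also slide columns, may pair the samples: deviations of same-numbered arrays correlated at 0.141, 0.144 and 0.236 over 15178 probes. The main fit did not use this pairing, and the replicate block was run as an alternative. The members, the role and partner lists and the adjustment for place were chosen with earlier results of these data known. Named genes are every called Rab probe, every Rab3b probe, a set of well-known Rabs, Rabs measured in both places and called list members, 1 of which is not reported here. Gene positions are those of RefSeq (GRCm38.p6). The build of the array's own coordinates is not given in the sources used here, and those were not used. Alternatives were other background corrections, offsets, intensities, normalizations and filters, a variance trend, a replicate block, the deposited table, the adjustment for place, the middle left out, copies averaged, and each array left out. The adjustment for place with the block was chosen after seeing the data.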

Additional observations from a re-analysis of the deposited data

How the results depend on the processing

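The counts of Rab probes called elsewhere held over the alternatives, 1 higher and 4 to 7 lower, except that leaving out single arrays gave 0 to 1 higher and 4 to 6 lower, the 0 coming without 1G11-mock replicate 2 and without 1G11-SOD3 replicate 3. In the middle, the count of 4 called higher was 2 without background correction and 5 with scaling to the 75th percentile. It was 6 with the replicate block alone and 1 with the adjustment for place, with or without the block. It was 1 to 5 when single arrays were left out, the 1 coming without 1G11-SOD3 replicate 1 or 3. None was called lower there except 4 with the processed signal and 1 with the adjustment and the block, and 0 to 0 with single arrays left out. The Rab median elsewhere, -0.23, became -0.18 without background correction, -0.18 with the processed signal, -0.26 with scaling to the 75th percentile, -0.17 with cyclic loess, -0.27 without dim probes, -0.045 with the adjustment for place, -0.045 with it and the block, -0.10 with the middle left out, and -0.26 to -0.17 with single arrays left out. The median in the middle, 0.87, became 0.69 without background correction, 0.79 with median pixels, 0.79 with the deposited table and 0.96 with cyclic loess. It was 1.09 without dim probes, 0.72 with copies averaged and 0.23 with the processed signal. With the adjustment for place it was 0.24, with or without the block. It was 0.53 to 1.04 with single arrays left out, the lowest without 1G11-mock replicate 3. The scanner's processed signal moved the median of all probes to -0.50 elsewhere and -1.27 in the middle, and under it the dim Rab15 probe in the middle turned to -1.79 (called lower). The cause of these changes was not tested. Both Rab17 probes, Rab27b A_55_P2010121 and Rab3b stayed called under every alternative that was run, Rab27a under all but the adjustment for place. The replicate block added the calls of Rab8a and Rab33b in the middle and changed no other Rab call. Signal over background limits the dim probes, of which 14 Rab measurements were well above background on no array.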
